A study of Mus musculus with 8 samples.

Results

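Necab1 was examined together with 9 other neuronal genes whose proteins bind calcium through EF-hands: Necab2, Necab3, Calb1, Scgn, Ncald, Hpca, Hpcal1, Hpcal4 and Vsnl1. These 10 genes, of the 23284 gene symbols in the count files, were taken by symbol, and they were gathered around Necab1 because its level was higher in the libraries labelled ErbB4-/-. The values of Necab1 are therefore given as a description with no test, and tests were kept for the other 9 genes. RNA was sequenced from dorsal cortex of E15.5 mouse embryos, in 4 libraries labelled ErbB4+/+ and 4 labelled ErbB4-/-, to ask how loss of ErbB4, a receptor tyrosine kinase for neuregulins, changes gene expression in the developing cortex. The ErbB4-/- mice carry no functional ErbB4 outside the heart, where a transgene driven by the alpha-MHC promoter supplies it. The paper calls the ErbB4+/+ animals wild type and does not say whether they carry the transgene. Both lines were on a C57BL/6 background and were bred as separate homozygous colonies, so genotype and colony cannot be told apart. Meninges and ganglionic eminences were dissected away before RNA extraction. Nothing in the labels says whether the 4 embryos of a genotype shared a litter, so the p-values below measure only the spread between these libraries.

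An EF-hand is a helix-loop-helix fold whose loop holds a calcium ion between acidic and other oxygen-bearing side chains. Some EF-hand proteins, such as calbindin, mainly buffer calcium, while others change shape on binding it and pass the signal on. The neuronal calcium sensor proteins, which include hippocalcin, neurocalcin delta and the visinin-like proteins, carry a myristoyl group and move to membranes when calcium rises. In the cortex several of these proteins are used as markers of neuron classes, interneurons among them.

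The calcium-binding loops were compared within each family of genes. Each coding sequence of the GENCODE annotation on NCBIM37 (mm9) was searched for the canonical 12-codon EF-hand loop (the PROSITE EF-hand pattern), which found 1 loop in Necab1, 2 in Necab2, 1 in Necab3, 4 each in Calb1 and Scgn, and 3 in each of Ncald, Hpca, Hpcal1, Hpcal4 and Vsnl1. The 36 bases of the first loop are shown for the NECAB genes on the coding strand, with the codons of the calcium-coordinating positions 1, 3, 5, 7, 9 and 12 in capitals. The Necab1 loop lies at chr4:15038424-15067381 on the minus strand, the Necab2 loop at chr8:121973997-121976007 on the plus strand and the Necab3 loop at chr2:154381403-154382802 on the minus strand, and each spans an intron.
Necab1: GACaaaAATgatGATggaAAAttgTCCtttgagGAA
Necab2: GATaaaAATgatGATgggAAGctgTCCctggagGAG
Necab3: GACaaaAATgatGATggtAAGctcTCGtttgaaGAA
The loop of Necab1 differed from that of Necab2 at 7 of the 36 bases and from that of Necab3 at 6, while identity over the whole coding sequences was between 50.4% and 56.4% for the NECAB pairs.

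Calb1 and Scgn belong to a second family with several loops a protein. One of the most similar pairs of loops is shown, the second of Calb1 at chr4:15822791-15822826 on the plus strand and the first of Scgn at chr13:24066683-24066718 on the minus strand, each within 1 exon, with the same codons in capitals.
Calb1: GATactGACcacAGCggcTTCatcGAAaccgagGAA
Scgn: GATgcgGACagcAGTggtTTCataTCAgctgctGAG
These loops differed at 14 of 36 bases, where the pairs of a Calb1 and a Scgn loop ran from 14 to 23, and the coding sequences were 50.9% identical.

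The first canonical loops of the 5 neuronal calcium sensor genes are shown because these genes had the highest identity over whole coding sequences, between 65.6% and 86.1%. The loops lie in 1 exon each, at chr15:37326938-37326973 (Ncald, minus strand), chr4:128795734-128795769 (Hpca, minus), chr12:17793193-17793228 (Hpcal1, plus), chr4:122866322-122866357 (Hpcal4, plus) and chr12:11338933-11338968 (Vsnl1, minus), again with the coordinating codons in capitals.
Ncald: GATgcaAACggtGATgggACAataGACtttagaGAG
Hpca: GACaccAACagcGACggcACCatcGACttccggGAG
Hpcal1: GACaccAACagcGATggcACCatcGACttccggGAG
Hpcal4: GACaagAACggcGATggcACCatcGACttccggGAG
Vsnl1: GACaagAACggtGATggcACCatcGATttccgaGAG
The Hpca and Hpcal1 loops differed at 1 base. Those of Hpcal4 and Vsnl1 differed at 3, as did those of Hpcal1 and Hpcal4, whereas the Ncald loop differed from the other 4 at 10 to 12 bases. Over whole coding sequences, Hpca and Hpcal1 were 86.1% identical, Hpcal4 and Vsnl1 82.1%, and Hpcal1 and Hpcal4 70.9%. Ncald was 78.7% identical to Hpca and 80.2% to Hpcal1, so the first loops and the whole sequences did not order all pairs alike. In the annotated protein-coding transcripts, no stretch of 50 bases, the read length, was shared between any pair of the 10 genes.

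The genes lie on 6 chromosomes (NCBIM37). Necab1 lies on the minus strand at chr4:14879392-15076941, and Calb1 at chr4:15808411-15835211 on the plus strand, 0.731 Mb away with 1 protein-coding gene between them. Hpca (chr4:128788814-128799280) and Hpcal4 (chr4:122860470-122871944) are 5.92 Mb apart on the same chromosome, and Hpcal1 (chr12:17697620-17798732) and Vsnl1 (chr12:11332053-11443455) are 6.25 Mb apart. The other genes are Necab2 (chr8:121970619-121996540), Necab3 (chr2:154370135-154384626), Scgn (chr13:24045325-24083083) and Ncald (chr15:37295930-37722325). Because the libraries do not keep the strand, reads from overlapping exons cannot be assigned by strand, and 7.83% of the exonic bases of Necab1 overlap Gm11837 on the opposite strand. Gm11837 itself had between 34 and 87 counts a library, against 386 to 1338 for Necab1.

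Between 28205703 and 38346416 reads were counted in each library labelled ErbB4+/+ and between 31574536 and 48871480 in each labelled ErbB4-/-, and levels are given as counts scaled to a common library size (CPM) from the TMM-normalized library. Erbb4 itself was not lower in the libraries labelled ErbB4-/-, with 8.99, 19.9, 25.3 and 19.2 CPM in ErbB4+/+ replicates 1 to 4 and 20.9, 24.6, 20.7 and 23.5 CPM in ErbB4-/- replicates 1 to 4, so the level of this transcript does not check the labels, and every direction below rests on them. Xist, the X-inactivation RNA of female cells, was between 983 and 1687 CPM in ErbB4+/+ replicates 1 to 3 and at or below 3.82 CPM in the other 5 libraries, in which Ddx3y, on the Y chromosome, was between 76.4 and 80.9 CPM. All libraries labelled ErbB4-/- thus had the pattern of male tissue, which ErbB4+/+ replicate 4 shared, and the other 3 labelled ErbB4+/+ that of female tissue. ErbB4+/+ replicate 1 stood apart on the first principal component (38.9, against -15.5 to 6.07 for the others), and its deviations ran against transcript length (Spearman's rho across genes -0.58, against 0.04 to 0.22). In ErbB4-/- replicate 3 the summed choroid plexus markers reached 615 CPM, against 2.71 to 14.5 CPM elsewhere. The defining markers of dorsal cortex and excitatory neurons were present throughout. Their summed levels were 3508 to 4024 CPM in libraries labelled ErbB4+/+ and 3481 to 3876 CPM in those labelled ErbB4-/-. Summed striatum markers were also detected, at 156 to 181 CPM in libraries labelled ErbB4+/+ and 161 to 170 CPM in those labelled ErbB4-/-. Whether ventral tissue remained after the dissection was not tested.

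Necab1, which chose the set, had a mean 1.60 times its ErbB4+/+ level in the libraries labelled ErbB4-/-. Scgn had 0.429 times its ErbB4+/+ level, a difference that passed the threshold with 1 of the tools run, and the remaining 8 genes had log2 fold changes between -0.15 and 0.22. Of the 9 genes that could be tested, 0 passed an adjusted p of 0.05 in edgeR's quasi-likelihood test, where 4 of all 14696 genes tested did (0.0272%). At an unadjusted p under 0.05 there were 2 (Ncald, higher, and Scgn, lower), against 5.53% of all genes tested (3.00% higher and 2.52% lower). DESeq2 called 1 of the 9, Scgn, and 24 of all genes (0.163%), and limma-voom called 0 of the 9 and 4 of all genes (0.0272%). All 10 genes passed the filter on low counts. The log2 fold change was above 0 for 7 of the 9, against 49.2% of all genes tested, with a median of 0.04 beside -0.0022 over all genes. In bulk tissue, a difference in the share of cells that express a gene and one in its RNA per cell cannot be told apart.

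**Figure D1:**
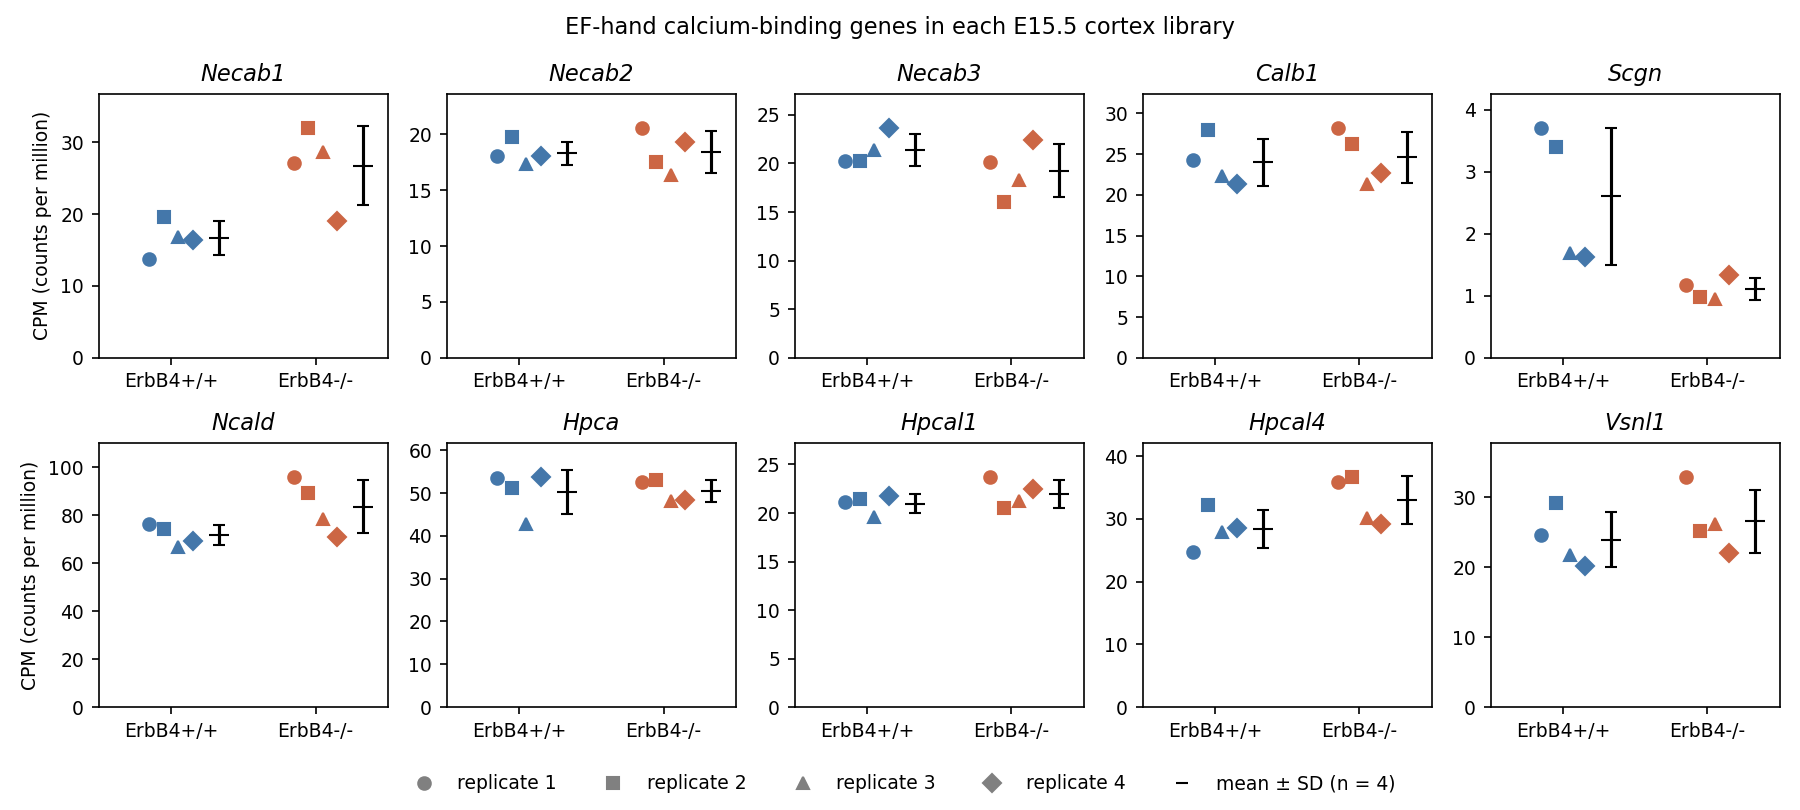
CPM of each of the 10 genes in every library (symbols mark the replicate number, 4 libraries per genotype label; black bars, mean ± SD; each panel has its own linear axis from 0). Necab1 ran from 13.8 to 19.6 CPM in libraries labelled ErbB4+/+ and from 19.0 to 32.0 CPM in those labelled ErbB4-/-, and Scgn is the gene whose groups do not overlap.

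Necab1 encodes the first of the N-terminal EF-hand calcium-binding proteins, which are expressed in subsets of neurons. Its level was 13.8, 19.6, 16.9 and 16.3 CPM in ErbB4+/+ replicates 1 to 4 and 27.2, 32.0, 28.6 and 19.0 CPM in replicates 1 to 4 labelled ErbB4-/-. The first 3 libraries labelled ErbB4-/- lay above every ErbB4+/+ library, whereas the last one lay just under ErbB4+/+ replicate 2, so that the groups overlapped. The group means were 16.6 ± 2.39 CPM and 26.7 ± 5.49 CPM (SD, n = 4 each), and the fitted log2 fold change was 0.68 with a standard error of 0.15, a ratio of 1.60. When each library was left out in turn, the log2 fold change was lowest at 0.58 (ErbB4-/- replicate 2 left out) and highest at 0.81 (ErbB4-/- replicate 4 left out). Against ErbB4+/+ replicate 4 alone, the one with the male pattern, the log2 fold change was 0.71 (standard error 0.24), and without ErbB4+/+ replicate 1 it was 0.60. Cortical progenitor markers, 6 of 6 tested and none at 0, all had log2 fold changes below 0 (median -0.16). Over all genes tested, 49.2% had a log2 fold change above 0. Of the 6 markers, 0 were called (0.0272% of all genes tested). An unadjusted p under 0.05 in edgeR was found for 2 of them, against 5.53% of all genes tested (2.52% lower). The summed level of these markers was 1581, 1335, 1529 and 1504 CPM in ErbB4+/+ replicates 1 to 4. In replicates 1 to 4 labelled ErbB4-/- it was 1297, 1245, 1313 and 1481 CPM. The sum was highest in the library where Necab1 was lowest, and lowest in the library where Necab1 was highest. Vim was the most abundant of these markers, with means of 714 CPM (ErbB4+/+) and 627 CPM (ErbB4-/-). Cajal-Retzius markers, 6 of 6 tested and none at 0, had log2 fold changes above 0 in 4 of 6 (49.2% of all genes tested). Of them 0 were called and 1 had an unadjusted p under 0.05 in edgeR (5.53% of all genes tested). Their summed level, most of it from Reln, was 197, 252, 236 and 275 CPM in libraries labelled ErbB4+/+ and 273, 308, 255 and 254 CPM in those labelled ErbB4-/-, lowest and highest in the same libraries as Necab1. The part of either list in the values of Necab1 was not tested.

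The paralogs of Necab1 had smaller fitted differences, and neither passed the test. Necab2, which binds adenosine and glutamate receptors in neurons, was at 18.0, 19.7, 17.3 and 18.1 CPM in libraries labelled ErbB4+/+ and at 20.6, 17.5, 16.4 and 19.3 CPM in those labelled ErbB4-/-. The values labelled ErbB4-/- extended past both ends of the ErbB4+/+ range, with a log2 fold change of 0.01 (standard error 0.09; edgeR adjusted p = 0.981). Necab3, which binds adaptor proteins of the amyloid precursor protein, was at 20.3, 20.2, 21.4 and 23.6 CPM in libraries labelled ErbB4+/+ and 20.1, 16.1, 18.3 and 22.5 CPM in those labelled ErbB4-/-. The 3 lowest values were in libraries labelled ErbB4-/-, but the groups overlapped, and the log2 fold change of -0.15 (standard error 0.10) did not pass the test (edgeR adjusted p = 0.810). Whether the fold change of Necab1 differs from those of its paralogs was not tested.

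Scgn, which encodes secretagogin, a calcium sensor of neuroendocrine cells and some interneurons, had the lowest level of the 10 genes and the largest fitted difference. It was at 3.71, 3.40, 1.69 and 1.62 CPM in ErbB4+/+ replicates 1 to 4 and at 1.18, 0.977, 0.948 and 1.33 CPM in replicates 1 to 4 labelled ErbB4-/-. Each library labelled ErbB4-/- lay below each ErbB4+/+ library, which was the case in either direction for 3.34% of all genes tested (1.86% higher and 1.48% lower) and for 1 of these 9. The ErbB4+/+ libraries themselves fell into a higher pair, replicates 1 and 2, and a lower pair, replicates 3 and 4. The values rest on few reads, from 57 to 106 counts a library labelled ErbB4+/+ and from 34 to 58 a library labelled ErbB4-/-. Their coefficient of variation among ErbB4+/+ libraries was 42.3%, against 11.0% from counting alone. Among libraries labelled ErbB4-/- it was 16.4%, against 15.3% from counting alone.

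The means of Scgn were 2.61 ± 1.10 CPM and 1.11 ± 0.182 CPM (SD, n = 4 each), with a log2 fold change of -1.22 (standard error 0.29). The call depended on the tool, since the adjusted p was 0.710 with edgeR, 0.809 with limma-voom and 0.0463 with DESeq2. The exact two-sided permutation test gave p = 0.0286, the smallest that 4 libraries against 4 allow. The size of the fold change depended on the libraries used. Against ErbB4+/+ replicate 4 alone the log2 fold change was -0.55 (standard error 0.33; edgeR adjusted p = 0.911), and with Xist as a covariate it was -0.59 (edgeR adjusted p = 1.00). Red blood cell markers moved in the same direction, although none of the 4 tested of 6 was called and Hba-a1 had 0 counts in every library. Their summed level was 56.6, 50.1, 45.2 and 31.8 CPM in libraries labelled ErbB4+/+ and 20.8, 23.8, 22.9 and 35.2 CPM in those labelled ErbB4-/-, and the part of this in the result for Scgn was not tested. Summed interneuron and ganglionic eminence markers, 12 of 12 tested and none at 0, covered 785 to 1012 CPM in libraries labelled ErbB4+/+ and 763 to 1026 CPM in those labelled ErbB4-/-. Of these 12, 6 had a log2 fold change above 0 (49.2% of all genes tested) and 0 were called. In edgeR 1 had an unadjusted p under 0.05 (Sst, -0.23, below 0 as for Scgn), against 5.53% of all genes tested.

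Calb1, which encodes the buffer calbindin, was at 24.3, 28.0, 22.3 and 21.4 CPM in libraries labelled ErbB4+/+ and at 28.2, 26.2, 21.4 and 22.7 CPM in those labelled ErbB4-/-. The groups overlapped over most of their range, and the log2 fold change was 0.04 (standard error 0.11; edgeR adjusted p = 0.944).

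Ncald (neurocalcin delta) had the highest CPM, not corrected for length, of the 10 genes. It was at 76.3, 74.5, 67.0 and 69.4 CPM in libraries labelled ErbB4+/+ and at 95.9, 89.2, 78.5 and 71.1 CPM in those labelled ErbB4-/-. As for Necab1, ErbB4-/- replicates 1 to 3 lay above every ErbB4+/+ library and ErbB4-/- replicate 4 within their range. The log2 fold change was 0.22 (standard error 0.09), with an unadjusted p of 0.0302 and an adjusted p of 0.810 in edgeR. The exact two-sided permutation test gave p = 0.114.

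Hpcal4, also named visinin-like protein 2, had a similar layout with more overlap. It was at 24.8, 32.2, 28.0 and 28.6 CPM in libraries labelled ErbB4+/+ and at 35.9, 36.7, 30.1 and 29.2 CPM in those labelled ErbB4-/-. Replicates 1 and 2 labelled ErbB4-/- were the highest of the 8, and the other pair lay between ErbB4+/+ values. The log2 fold change was 0.22 (standard error 0.10; edgeR adjusted p = 0.810).

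Vsnl1, visinin-like protein 1, varied most among the sensors within a genotype label, with 24.7, 29.2, 21.8 and 20.2 CPM in libraries labelled ErbB4+/+ and 32.9, 25.1, 26.2 and 22.1 CPM in those labelled ErbB4-/-. Its highest value was in ErbB4-/- replicate 1, and without that library the log2 fold change of 0.15 (standard error 0.14; edgeR adjusted p = 0.826) became 0.03. Against ErbB4+/+ replicate 4 alone, which had the lowest level of the 8, it was 0.40.

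Hpca and Hpcal1, the closest pair in sequence, had small fitted differences. Hpca (hippocalcin), known from hippocampal pyramidal neurons, was at 53.6, 51.2, 42.8 and 53.7 CPM in libraries labelled ErbB4+/+ and at 52.5, 53.1, 48.3 and 48.4 CPM in those labelled ErbB4-/-. All 4 values labelled ErbB4-/- fell within the ErbB4+/+ range, with a log2 fold change of 0.01 (standard error 0.08; edgeR adjusted p = 0.989). Hpcal1, also named visinin-like protein 3, was at 21.2, 21.5, 19.6 and 21.7 CPM in libraries labelled ErbB4+/+ and at 23.7, 20.5, 21.2 and 22.5 CPM in those labelled ErbB4-/-. The log2 fold change was 0.07 (standard error 0.07; edgeR adjusted p = 0.846), and both groups stayed within a narrow range.

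**Figure D2:**
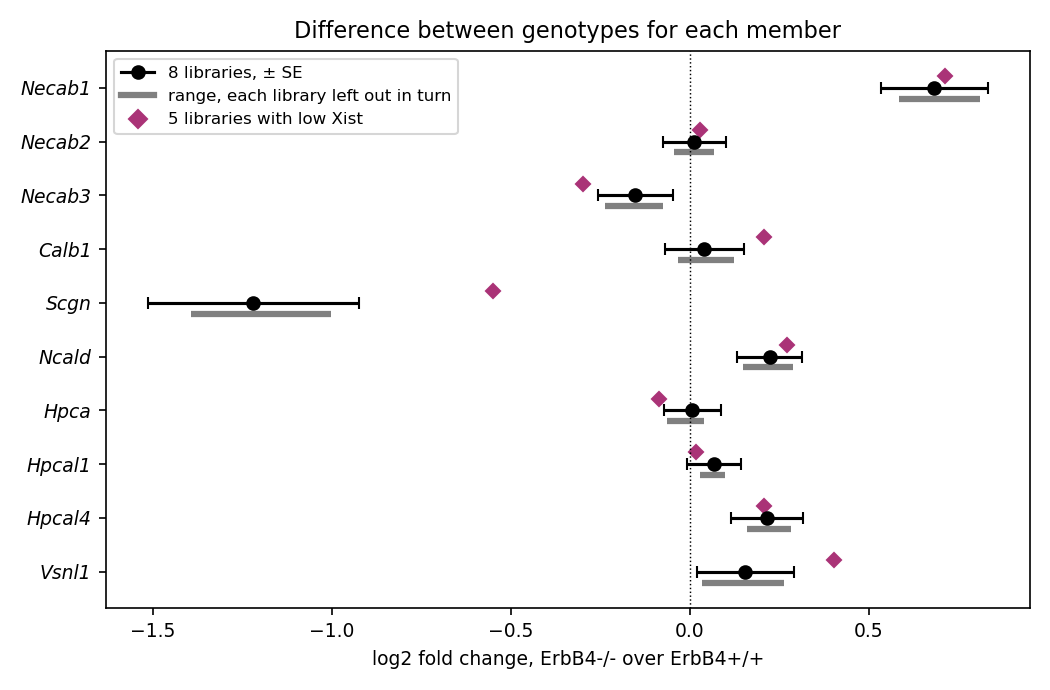
Fitted log2 fold change of the libraries labelled ErbB4-/- over those labelled ErbB4+/+ for each gene from all 8 libraries with its standard error (black), the range when each library was left out in turn (grey) and the value from the 5 libraries with little Xist (diamonds). Necab1 lies at 0.68 and Scgn at -1.22, while the other 8 genes lie between -0.15 and 0.22.

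A single library held the extreme value for several of the genes. ErbB4-/- replicate 1 had the highest level of 5 of the 10 (Necab2, Calb1, Ncald, Hpcal1 and Vsnl1), and ErbB4-/- replicate 2 that of Necab1 and Hpcal4. The lowest level fell in ErbB4+/+ replicate 3 and in ErbB4-/- replicate 3 for 3 genes each. ErbB4-/- replicate 1 was also the deepest library, and without it the log2 fold changes of Necab2, Calb1 and Hpca, all near 0, became negative.

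**Figure D3:**
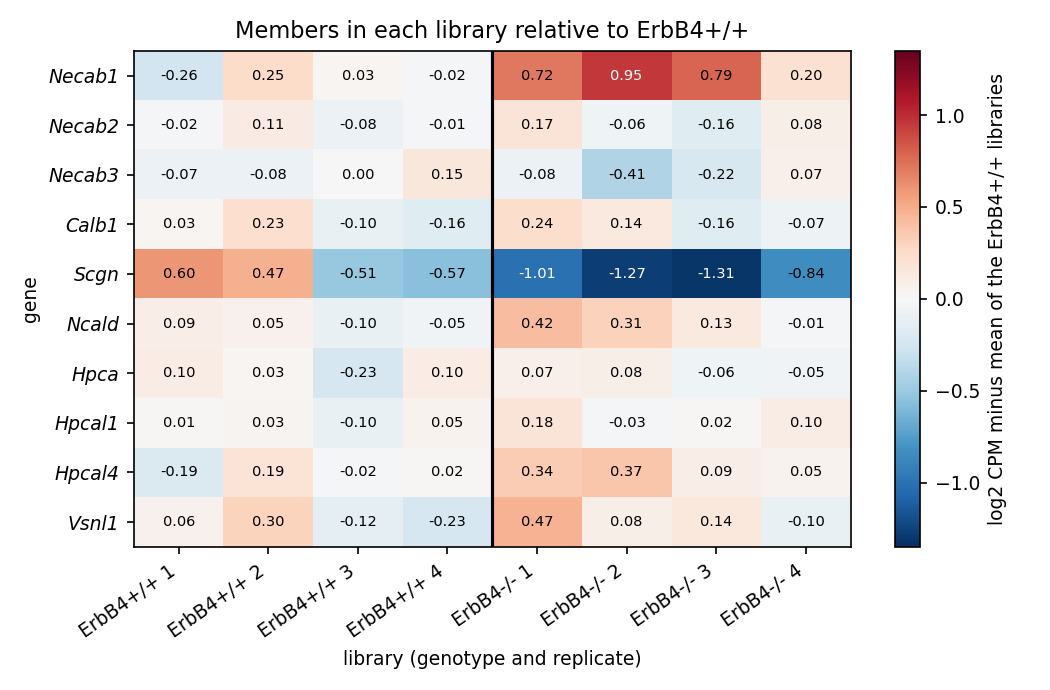
Log2 CPM of each gene (rows) in each library (columns) minus its mean over the libraries labelled ErbB4+/+ (colour and printed value). Necab1 is above that mean by 0.72, 0.95, 0.79 and 0.20 in ErbB4-/- replicates 1 to 4, and Scgn ranges from 0.60 in ErbB4+/+ replicate 1 to -1.31 in ErbB4-/- replicate 3.

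Levels of different genes were compared per kilobase of annotated exon. In libraries labelled ErbB4+/+ the order was Hpca (17.3 CPM per kb), Hpcal1 (13.4), Vsnl1 (12.4), Ncald (10.3), Necab2 (8.73), Necab3 (8.39), Hpcal4 (5.32), Calb1 (4.95), Necab1 (3.18) and Scgn (1.72). Neighbours in this order that overlapped between libraries were Hpcal1 with Vsnl1, Vsnl1 with Ncald, Necab2 with Necab3, and Hpcal4 with Calb1. Necab1 thus lay below Calb1 in all 4 libraries labelled ErbB4+/+. In those labelled ErbB4-/- Necab1 was at 5.10 CPM per kb beside 5.08 for Calb1, and the libraries of these genes overlapped. Scgn was the lowest in both, at 0.733 CPM per kb in libraries labelled ErbB4-/-. The scale assumes that all annotated exons are used, which was not tested.

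**Figure D4:**
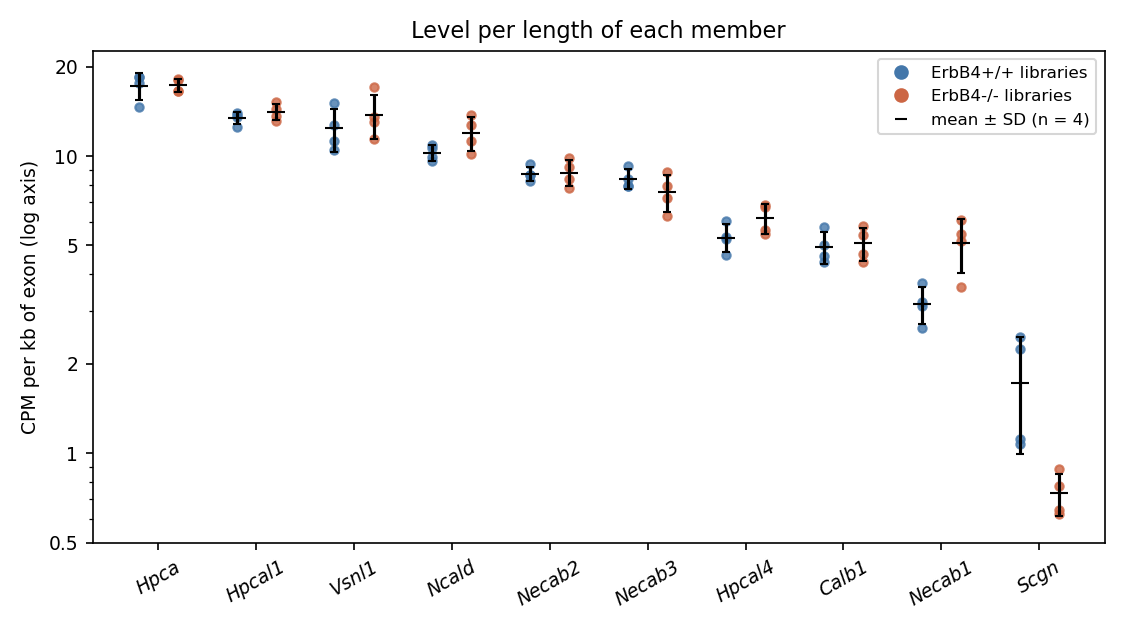
CPM per kilobase of annotated exon for each gene, with points for libraries of both genotype labels on a log axis, black bars for the mean ± SD (n = 4) and genes ordered by their ErbB4+/+ mean. Hpca is highest at 17.3 CPM per kb and Scgn lowest at 1.72 in libraries labelled ErbB4+/+, and Necab1 moves from 3.18 to 5.10.

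Across the 8 libraries, log2 CPM of Necab1 followed Hpcal4 most closely among the other 9 genes (Pearson's r = 0.86, Spearman's rho = 0.90), then Ncald (r = 0.74) and Vsnl1 (r = 0.52). It ran against Scgn (r = -0.76) and Necab3 (r = -0.75) and had almost no relation to Necab2 (r = -0.08) and Hpca (r = 0.09). Of all other tested genes with a mean of at least 1 CPM, those most like Necab1 were Ablim1 (r = 0.994), an actin-binding LIM protein gene, Opcml (0.994), which encodes a cell adhesion molecule of the IgLON family, Gng2 (0.985), a G protein gamma subunit gene, Tnc (0.975), which encodes the matrix protein tenascin C, and Scn2a1 (0.974), a voltage-gated sodium channel gene. Without the 2 libraries farthest from the median of Necab1, r was 0.985, 0.999, 0.972, 0.976 and 0.964 in that order. These values are descriptions over 8 libraries that differ in genotype label, sex and depth together, and the 5 genes were picked as the highest among all genes. Opcml, for example, was at 56.5, 71.2, 65.1 and 62.8 CPM in libraries labelled ErbB4+/+ and at 88.8, 91.9, 91.6 and 69.5 CPM in those labelled ErbB4-/-, so that its ErbB4-/- replicate 4 lay within the ErbB4+/+ range as for Necab1.

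The other genes of the EF-hand fold gave counts near those over all genes tested. Of 43 listed genes, 33 were tested and 0 passed an adjusted p of 0.05 in edgeR, DESeq2 or limma-voom. At an unadjusted p under 0.05 there were 2 (edgeR; 5.53% of all genes tested), and in 0 of the 33 did the groups separate (3.34% of all genes tested). The log2 fold change was above 0 in 16 of 33 (49.2% of all genes tested), with a median of -0.0076. Caln1 (calneuron 1, related to calmodulin) was at 8.99, 18.2, 12.5 and 14.2 CPM in libraries labelled ErbB4+/+ and at 17.9, 20.1, 19.1 and 14.2 CPM in those labelled ErbB4-/-. It had the highest log2 fold change of the 33, 0.40 with a standard error of 0.18 (unadjusted p = 0.0460, adjusted p = 0.810, edgeR), and its low value was in ErbB4+/+ replicate 1. S100a6 (0.29) and Kcnip2 (0.27), a potassium channel-interacting sensor, followed. The lowest were Guca1b (-0.47, on at most 14 counts a library), Cabp1 (-0.27) and Rcn3 (-0.23, unadjusted p = 0.0405, edgeR), the last of them a protein of the secretory pathway. Calm2 and Calm3, general calcium sensors of the cell and among the most abundant of the list, were close to their ErbB4+/+ levels. Calm3 was at 695 ± 61.2 CPM in libraries labelled ErbB4+/+ and 699 ± 24.4 CPM in those labelled ErbB4-/- (SD, n = 4 each; log2 fold change 0.01, edgeR adjusted p = 0.985), and the log2 fold change of Calm2 was -0.05 (edgeR adjusted p = 0.871). Pvalb (parvalbumin), an interneuron buffer that appears after birth, had 0 counts in all 8 libraries.

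**Figure D5:**
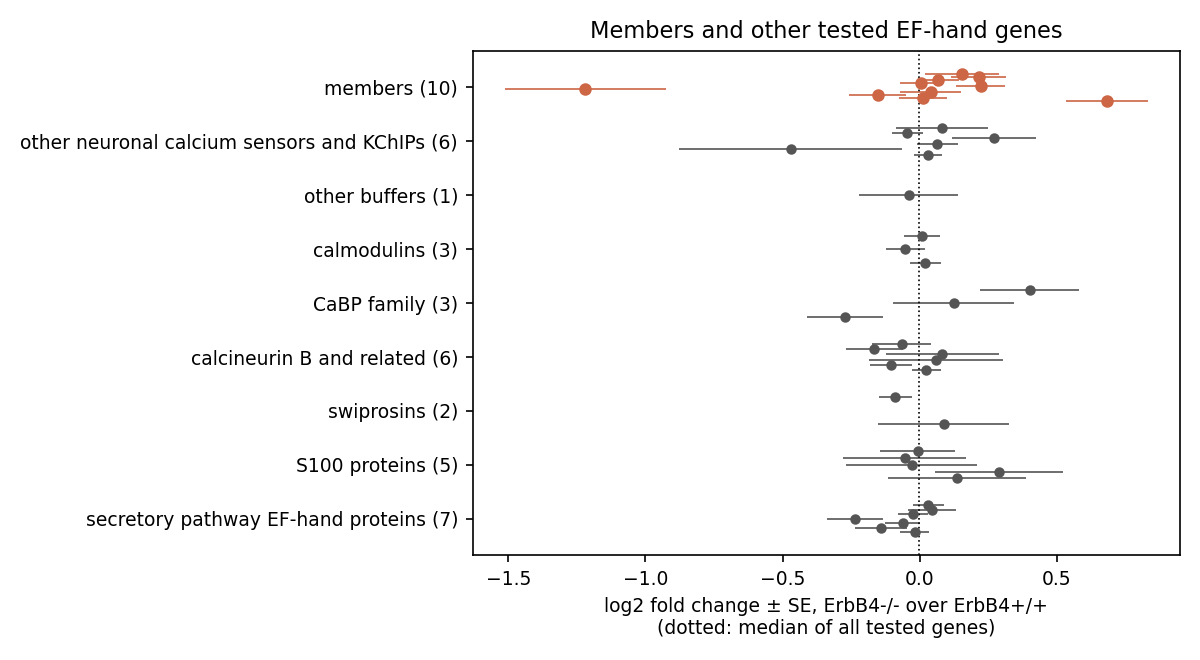
Fitted log2 fold change with its standard error (bars) for the 10 genes and for 33 other tested EF-hand genes grouped by family, with the number of genes in brackets and the median of all tested genes as a dotted line. The other EF-hand genes lie between -0.47 and 0.40, and Necab1 (0.68) and Scgn (-1.22) lie outside that range.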

How the data were processed

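Dorsal cortex RNA at E15.5 was sequenced as single-end 50-base reads from unstranded libraries of polyA RNA. The authors aligned with HISAT (mm9) and used HTSeq for counting, and the deposited files hold raw counts per gene symbol, not normalized. The annotation and counting mode are not given in the sources used here. The deposited DESeq2 table (mean normalized counts, log2 fold changes, standard errors, Wald statistics and p-values) was not used. Depth was 28205703 to 48871480 counts a library. Groups were taken from the labels.

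Counts were fitted for all genes with edgeR 4.0.16 in R 4.3.3 (TMM factors of 0.994 to 1.01; filterByExpr, min.count 10, min.total.count 15; the quasi-likelihood F test). P-values of the 14696 genes that passed were adjusted by the Benjamini-Hochberg method, and 0.05 was the threshold. Single values other than Necab1 were also tested by the exact two-sided permutation test over 70 assignments. CPM are counts over the TMM-scaled totals, and log2 CPM have a prior count of 2. Every fit used all 8 libraries except where a library is said to be left out.

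The 10 genes and the lists were chosen with earlier results of these data known. Named genes are these 10, the 3 highest, 3 lowest and 3 most abundant other EF-hand genes, the 5 genes most like Necab1 over the libraries by Pearson's r, and Erbb4, Xist and Ddx3y. A gene that this rule names is not reported here. Gm11837, Pvalb, Hba-a1, Reln, Sst and Vim were named after their values were seen. Loops and exon lengths were read from GENCODE on NCBIM37, matched by symbol (10 of 10). Alternatives were DESeq2 1.42.0, limma-voom (limma 3.58.1), other scaling factors and filters, leaving out each library, a block for the replicate number, a covariate for Xist, the 5 libraries with little Xist (below 100 CPM) alone, removal of the trend with transcript length, an adjusted p of 0.1 and a prior count of 0.5. Scripts were tested on simulated data. Figures were drawn with matplotlib 3.10.9.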

Additional observations from a re-analysis of the deposited data

Results flagged for a closer look

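In groups of 4 libraries, 5 of the 86 sets of values looked at held 1 library far from the other 3 by Dixon's ratio, and chance gives about 1 in 20. None of them was one of the 10 calcium-binding genes. Opcml, one of the genes most like Necab1, was at 69.5 CPM in ErbB4-/- replicate 4, apart from 88.8 to 91.9 CPM in the other libraries with that label. Ddx3y was at 76.4 CPM in ErbB4+/+ replicate 4, against at most 0.495 CPM in the other libraries labelled ErbB4+/+. The summed choroid plexus markers (615 CPM) and the summed meninges markers (18.2 CPM) were both highest in ErbB4-/- replicate 3. The summed subplate markers were lowest in ErbB4+/+ replicate 3 (71.5 CPM).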

How the results depend on the processing

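The log2 fold change of Necab1 stayed between 0.58 and 0.81 in all 20 alternatives. None of the other 9 genes was called in any alternative but DESeq2, which called 1, Scgn. Over its alternatives the log2 fold change of Scgn ran from -1.39 to -0.55 and its adjusted p from 0.0463 to 1.00. The median log2 fold change of the other EF-hand genes changed sign between settings, from -0.039 to 0.037. The cause of these differences was not tested. The values of Scgn rested on few reads, at 34 to 106 counts a library.

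The log2 fold changes that changed sign were all near 0. When 1 library was left out, Necab2 ran from -0.046 to 0.066 (below 0 without ErbB4+/+ replicate 3 at -0.014, and without ErbB4-/- replicate 1 at -0.046 or 4 at -0.013), Calb1 from -0.034 to 0.12 (below 0 without ErbB4+/+ replicate 4 at -0.012 or ErbB4-/- replicate 1 at -0.034) and Hpca from -0.065 to 0.040 (below 0 without ErbB4+/+ replicate 3 at -0.065, or ErbB4-/- replicate 1 at -0.013 or 2 at -0.017). Hpca was also at -0.10 with Xist as a covariate and at -0.088 in the libraries with little Xist.

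Of the 9 genes, between 1 and 3 did not overlap when 1 library was left out, with 2 without ErbB4+/+ replicate 2 (9.53% of all genes) and 3 without ErbB4-/- replicate 4 (9.97%). In the libraries with little Xist it was 6 (42.1% of all genes), where a lone ErbB4+/+ library stands against 4 and is assumed to vary like them. Over all genes, 4 calls became 24 with DESeq2, 1 with relative log expression factors, upper-quartile factors, Xist as a covariate or the libraries with little Xist, 2 with the length trend removed, and between 1 and 13 when 1 library was left out, the 13 without ErbB4+/+ replicate 4.

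Same-numbered libraries did not deviate together beyond a correlation of 0.024 to 0.135, and not every library was closest to its own number, so the numbers were not used as pairs. With the replicate number as a block, 0 of the 9 genes and 1 of all genes were called, 4 of the 9 did not overlap once the block was removed (16.8% of all genes), and Necab1 was at 0.67.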
